A study of Rattus norvegicus with 81 samples.

Results

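Mammary glands of rats were compared after exposure to diethyl phthalate (DEP), a phthalate ester used as a solvent and fragrance carrier. DEP glands, 5 in number, came from female Sprague-Dawley rats exposed from postnatal day (PND) 21 to 41, and OIL glands, also 5, came from rats of the same strain and sex that received the olive oil vehicle over the same days. These 10 arrays, taken by treatment and exposure window, were part of a series of 81 arrays in 18 groups that also covered methyl paraben (MPB), triclosan (TCS) and other exposure windows. The agent reached the pups through the milk of the dosed dam until weaning and by oral gavage afterwards, every animal was killed at PND 42, and total RNA of the 5th caudal mammary glands of both sides was hybridised to Affymetrix whole-transcript arrays. The series describes its doses as low, set to give urinary levels like those measured in people, and the dose itself is not given in the sources used here. In each group 3 arrays carried batch label 1 (replicates 1 to 3) and 2 carried batch label 2 (replicates 4 and 5), and all RNA came from the same extraction kit. Litters are not named for these animals, so p-values measure the spread between animals only, and 5 arrays per group limit the precision.

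At this age the mammary gland is a small branching epithelial tree in a large fat pad, so adipocytes, vessels and a lymph node contribute to RNA of the whole gland. Fat and mammary cells both run a circadian clock. In it BMAL1 and CLOCK switch on the Per, Cry and Nr1d1 genes through E-boxes, PER and CRY proteins shut BMAL1 and CLOCK down, and REV-ERB alpha, the product of Nr1d1, represses Bmal1 through elements it shares with the ROR receptors. DBP and TEF, products of clock-controlled genes, pass the rhythm to output genes through D-boxes. Transcripts of many of these genes swing widely within a day, and the hour at which each animal was killed is not given in the sources used here. Fewer cells of a type and less RNA per cell cannot be told apart in RNA of a whole gland.

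The promoters that bear on the clock genes described below are shown to place these elements, as 250 bases upstream of each RefSeq start site (build GRCr8), with any match to an E-box (CACGTG), a ROR element core (TAGGTCA) or a D-box (TTATGTAA) on either strand in capitals. Nr1d1 has 2 start sites, and their upstream windows span chr10:84231813-84232062 and chr10:84229455-84229704 on the minus strand. The upstream window of Tef spans chr7:115206577-115206826 and that of Bmal1 chr1:176766078-176766327, both on the plus strand.
Nr1d1 start 1: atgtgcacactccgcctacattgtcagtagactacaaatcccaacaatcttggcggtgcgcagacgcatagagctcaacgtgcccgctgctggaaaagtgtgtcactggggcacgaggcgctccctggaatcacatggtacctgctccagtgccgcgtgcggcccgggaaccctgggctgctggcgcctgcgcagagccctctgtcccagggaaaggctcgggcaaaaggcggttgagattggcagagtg
Nr1d1 start 2: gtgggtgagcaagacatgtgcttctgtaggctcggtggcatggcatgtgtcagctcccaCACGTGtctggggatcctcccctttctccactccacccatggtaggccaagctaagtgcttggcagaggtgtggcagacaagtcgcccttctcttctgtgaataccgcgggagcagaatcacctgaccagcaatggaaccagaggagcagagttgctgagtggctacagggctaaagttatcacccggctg
Tef: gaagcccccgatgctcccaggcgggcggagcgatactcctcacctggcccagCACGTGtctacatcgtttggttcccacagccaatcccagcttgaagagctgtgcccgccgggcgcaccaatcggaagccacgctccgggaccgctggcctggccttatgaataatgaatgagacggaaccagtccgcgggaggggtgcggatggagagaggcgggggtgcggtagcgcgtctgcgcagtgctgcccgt
Bmal1: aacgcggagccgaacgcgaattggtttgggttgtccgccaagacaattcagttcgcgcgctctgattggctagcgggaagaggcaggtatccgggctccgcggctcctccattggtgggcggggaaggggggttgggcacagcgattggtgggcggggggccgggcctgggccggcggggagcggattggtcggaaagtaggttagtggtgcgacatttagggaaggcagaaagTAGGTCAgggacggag
An E-box began 191 bases before the second Nr1d1 start and 198 bases before that of Tef, and a ROR element core began 16 bases before the Bmal1 start. Of all 33469 promoters of this length, 5.59% held the E-box, 2.26% the ROR element core and 0.828% the D-box. Among 14 of the 16 measured clock genes that had a promoter in the table, the E-box was found in 4 (Bhlhe40, Bhlhe41, Nr1d1 and Tef), the ROR element core in Bmal1 and the D-box in Per2. A match describes these letters only.

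Several glands stood apart within their own group. The score of a list of skeletal muscle genes (mean log2 level of 16 genes minus its median over 40 arrays) was 2.14 in DEP replicate 3 and at most 0.01 in the other DEP glands, and 2.75 and 1.36 in OIL replicates 1 and 4 against at most -0.08 in the other OIL glands. B cell and lymph node genes scored 0.55 in DEP replicate 1 and 0.06 in OIL replicate 5, and between -1.82 and -1.10 in the other 8 glands. Correlations between the 10 arrays ran between 0.854 and 0.981. Of markers listed for the labelled tissue, 21 of 21 luminal, 11 of 15 basal and 19 of 21 fat genes were in the deposited matrix. Over all lists 444 of 602 members were in it, and being in it does not show detection in these glands. Gata3, the luminal transcription factor, read 11.23 to 11.93 in DEP glands and 11.53 to 11.96 in OIL glands on the log2 scale.

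One gene passed the test. Nr1d1, the nuclear receptor that represses Bmal1, was 2.72-fold lower in DEP glands, and it was the single gene of 6762 tested (0.0148%) with an adjusted p under 0.05 by limma, with batch as a term and Benjamini-Hochberg adjustment. At an unadjusted p under 0.05, 48 genes (0.71%) were higher and 105 (1.55%) lower in DEP glands, 153 in all, where 338 are expected from the threshold alone. DEP and OIL arrays did not overlap in 7 genes with DEP above (0.104%) and 32 with DEP below (0.473%). Differences above 0 made up 50.9% of the genes, the median size of a difference was 0.09 on the log2 scale, and 5 genes exceeded a size of 1, namely Nr1d1, Wap, Csn2 and, named after their values were seen, the milk protein genes Csn1s2a and Glycam1. In this fit of 10 arrays every gene described hereafter other than Nr1d1 missed an adjusted p of 0.05, and its difference is given as a log2 value ± standard error (SE) with no call.

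Nr1d1 read 8.20, 8.26, 8.87, 8.48 and 8.85 in DEP replicates 1 to 5, and 10.14, 10.08, 9.93, 9.70 and 10.03 in OIL replicates 1 to 5. Every DEP gland was below every OIL gland. The means were 8.53 ± 0.32 in DEP glands and 9.98 ± 0.18 in OIL glands (SD, n = 5 each). The log2 difference was -1.44 ± 0.16 (95% interval -1.80 to -1.08, adjusted p = 0.0283 by limma), and it was -1.61 within batch label 1 and -1.19 within batch label 2. Leaving out single arrays moved the difference between -1.54 and -1.35. The call was kept without DEP replicate 3, DEP replicate 5 or OIL replicate 4 and lost without any of the other 7 arrays, with adjusted p between 0.0632 and 0.185. Without DEP replicate 3 and OIL replicates 1 and 4, the glands rich in muscle transcripts, the difference was -1.61 (adjusted p = 0.151, 4 against 3 arrays), and with the muscle score as a covariate it was -1.42 (adjusted p = 0.0711), both by limma. Thra, the thyroid hormone receptor gene whose RefSeq span shares 1061 bases with that of Nr1d1 (chr10:84198141-84225659 and chr10:84224599-84231812), differed by -0.14 ± 0.12.

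**Figure D1:**
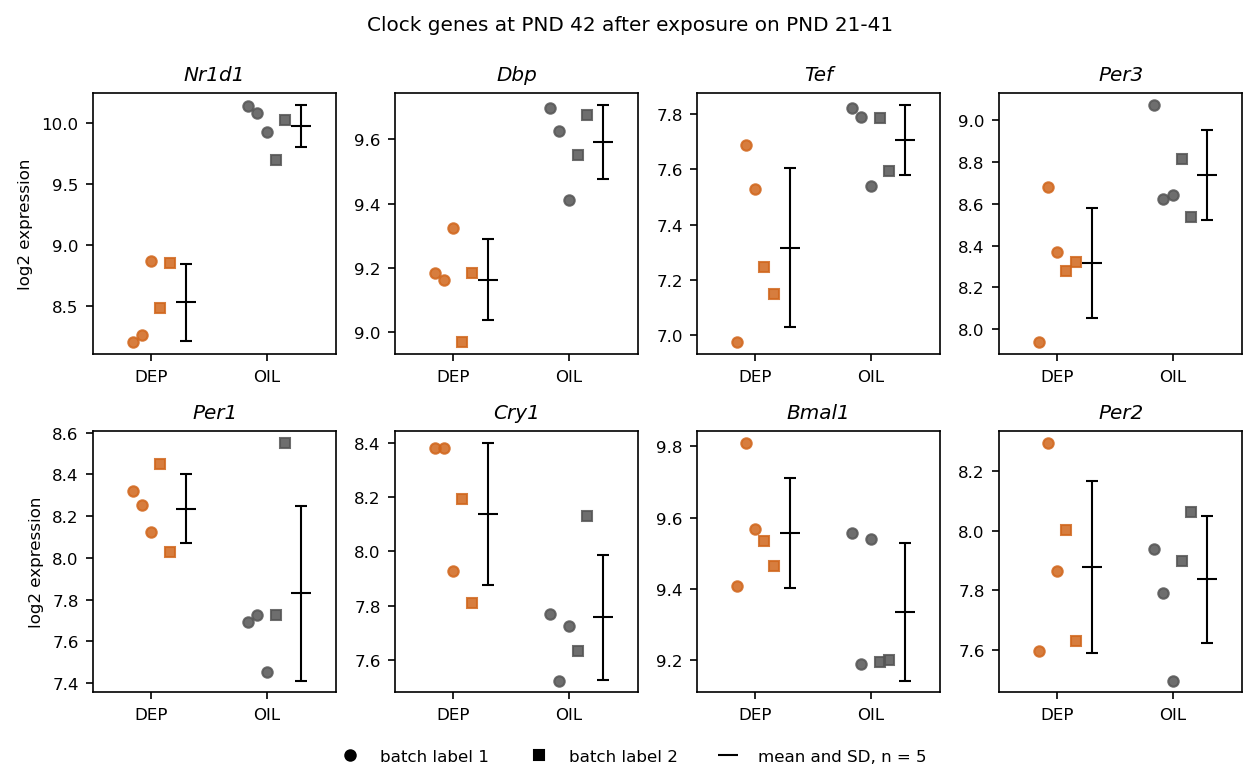
Log2 expression of 8 clock genes in each array at PND 42, with DEP left of OIL, circles for batch label 1, squares for batch label 2, and bars for the mean and SD of 5 arrays. Nr1d1 and Dbp do not overlap between the groups, whereas the other 6 genes do.

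Of 25 clock genes listed, 16 were analysed here. Besides Nr1d1, Dbp, Tef and Per3 were lower and Per1 and Cry1 higher at an unadjusted p under 0.05. This gives 2 of 16 members higher and 4 lower, beside 0.71% and 1.55% of all genes. The list as a whole was balanced, with 8 members above and 8 below OIL and a median of -0.01, beside a median of 0.00 over all genes. Counts at that p were 0 higher and 2 lower without the muscle-rich arrays, and 1 higher and 4 lower without DEP replicate 1. Over all genes the counts in these fits were 16 higher and 93 lower without the muscle-rich arrays, and 127 higher and 155 lower without DEP replicate 1.

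Dbp, a transcription factor that acts on D-boxes, read 9.18, 9.16, 9.32, 8.97 and 9.18 in DEP glands and 9.70, 9.63, 9.41, 9.55 and 9.68 in OIL glands. All DEP glands were below all OIL glands, and the difference was -0.43 ± 0.10, with -0.36 and -0.54 in batch labels 1 and 2. Tef, its close relative with an E-box in the promoter shown above, read 6.97, 7.69, 7.53, 7.25 and 7.15 in DEP glands and 7.82, 7.79, 7.54, 7.78 and 7.60 in OIL glands. DEP replicate 2 lay within the OIL range and DEP replicate 3 just under it, and the difference was -0.39 ± 0.14. Per3, a member of the period family, read 7.94, 8.68, 8.37, 8.28 and 8.32 in DEP glands and 9.07, 8.62, 8.64, 8.81 and 8.54 in OIL glands. Only DEP replicate 2 reached the OIL range, and the difference was -0.42 ± 0.15.

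Per1, a period gene that glucocorticoids also induce, read 8.32, 8.26, 8.13, 8.45 and 8.03 in DEP glands and 7.69, 7.72, 7.45, 7.73 and 8.55 in OIL glands. OIL replicate 5 was above every DEP gland and the other 4 OIL glands were below every DEP gland, and the difference was 0.41 ± 0.18, with 0.61 in batch label 1 and 0.10 in batch label 2, which holds that OIL gland. Cry1, the cryptochrome that represses BMAL1 and CLOCK, read 8.38, 8.38, 7.93, 8.19 and 7.81 in DEP glands and 7.77, 7.52, 7.73, 7.63 and 8.13 in OIL glands. Here too OIL replicate 5 was the one OIL gland within the DEP range, and the difference was 0.38 ± 0.16, with 0.56 and 0.12 in batch labels 1 and 2. Bmal1, the gene that REV-ERB alpha represses, read 9.41, 9.81, 9.57, 9.53 and 9.46 in DEP glands and 9.56, 9.19, 9.54, 9.20 and 9.20 in OIL glands. Its groups overlapped through OIL replicates 1 and 3, and the difference was 0.22 ± 0.11 (95% interval -0.03 to 0.48). Wee1, a cell cycle kinase under clock control, differed by 0.26 ± 0.13. Npas2, the CLOCK paralog, differed by -0.06 ± 0.20, and Per2 by 0.04 ± 0.16. The remaining members, Cry2, Rora, Bhlhe40, Bhlhe41, Usp2 and Noct, had differences between -0.15 and 0.14, each with a 95% interval that spans 0.

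Among arrays of the same group and batch, Dbp followed Nr1d1 most closely of the clock genes (Pearson r = 0.80 over the deviations of 10 arrays from their group and batch means), and Cry2 and Cry1 ran the other way (r = -0.53 and -0.46). Over all genes the patterns most like that of Nr1d1 in these deviations were those of Senp18 (r = -0.98), Megf10 (r = 0.97), Inka2 (r = -0.96) and Mmp8 (r = 0.96), followed by Afg1l, Sipa1l3, Zfp358, Olr1191, Col2a1 and Cenpv with sizes of r of at least 0.92. These are the extremes over all genes tested in only 10 arrays, and genes of an array share that array's RNA. The deviations hold fewer free values than arrays, because the 2 arrays of batch label 2 in each group mirror each other. These correlations are given as a description.

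Nr1d1 was also compared in the other DEP windows. Days of exposure and age at kill both change between the earlier and later windows, and cannot be told apart there. After PND 42-62, with glands taken at PND 63, Nr1d1 read 8.94, 8.84, 8.84, 9.90 and 9.10 in DEP glands and 10.19, 10.46, 10.49, 10.30 and 10.50 in OIL glands. All DEP glands were again below all OIL glands. In one fit over the 40 DEP and OIL arrays the difference was -0.20 ± 0.21 after gestation days (GD) 1-20, 0.23 ± 0.21 after PND 1-20, -1.44 ± 0.21 after PND 21-41 and -1.26 ± 0.21 after PND 42-62. The PND 21-41 difference minus that of another window was -1.67 ± 0.29 for PND 1-20 (adjusted p = 0.0133), -1.25 ± 0.29 for GD 1-20 (adjusted p = 0.583) and -0.18 ± 0.29 for PND 42-62 (adjusted p = 0.983), all by limma. Genes whose DEP effect differed between windows at an adjusted p under 0.05 numbered 1 against PND 1-20 (0.0148%, Nr1d1), 0 against PND 42-62 (0%, with 186 at an unadjusted p under 0.05) and 0 against GD 1-20 (0%, with 258). Without DEP replicate 1 or DEP replicate 2 the count against PND 1-20 was 0, and without OIL replicate 2 it was 2.

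**Figure D2:**
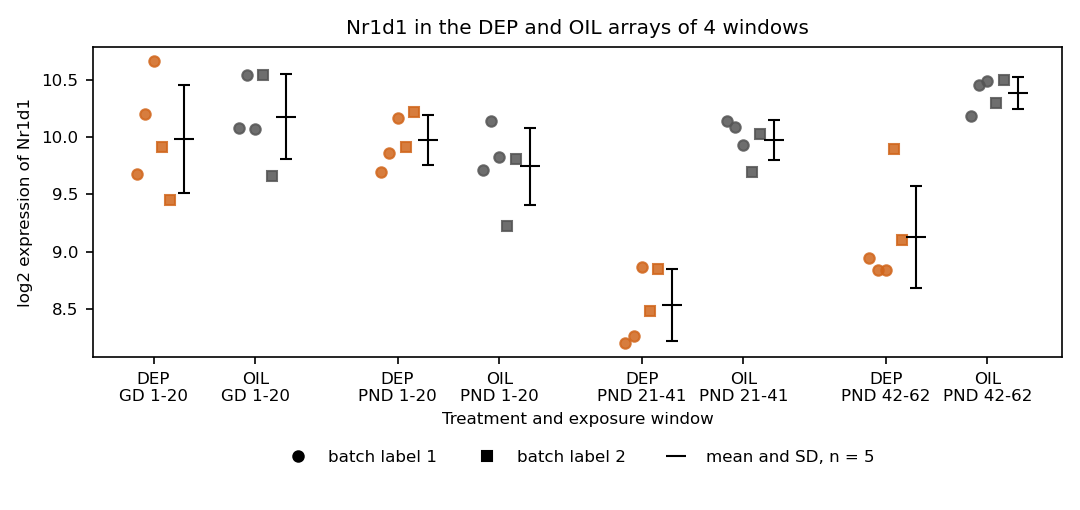
Log2 expression of Nr1d1 in each DEP and OIL array of 4 exposure windows in order of age at exposure, with bars for the mean and SD of 5 arrays. DEP glands lie below all OIL glands of their window after PND 21-41 and PND 42-62, and the groups overlap after GD 1-20 and PND 1-20.

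Per3, Dbp, Tef, Cry1 and Per1 had differences of the same sign in both later windows. Per3 differed by -0.42 ± 0.18 after PND 21-41 and -0.76 ± 0.18 after PND 42-62, Dbp by -0.43 ± 0.17 and -0.77 ± 0.17, and Tef by -0.39 ± 0.15 and -0.49 ± 0.15. Cry1 differed by 0.38 ± 0.14 and 0.62 ± 0.14, and Per1 by 0.41 ± 0.19 and 0.56 ± 0.19. After PND 1-20 the same genes differed by -0.11 (Per3), -0.17 (Dbp), -0.07 (Tef), -0.002 (Cry1) and -0.27 (Per1), and after GD 1-20 by -0.28 (Per3), -0.30 (Dbp), -0.32 (Tef), -0.03 (Cry1) and -0.27 (Per1). Per3, Dbp and Tef were thus below OIL in all 4 windows. No contrast between windows passed the test for these genes. Controls are not shared between these windows.

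Glands of rats given the other chemicals over PND 21-41 were compared with the same OIL animals, so these comparisons are not independent of the DEP one, and their levels come from a separately normalized table. There Nr1d1 averaged 9.02 ± 0.22 in MPB glands (8.77 to 9.37, n = 5) and 9.00 ± 0.18 in TCS glands (8.88 to 9.20, n = 3), with 10.09 ± 0.27 in the OIL glands (9.67 to 10.34, n = 5, SD). Neither chemical's glands overlapped OIL. The TCS arrays all carried batch label 1, whereas MPB and OIL held 3 arrays of batch label 1 and 2 of batch label 2. Within batch label 1 Nr1d1 averaged 8.90 in MPB glands and 9.00 in TCS glands, with 10.26 in OIL glands, and within batch label 2 it averaged 9.21 in MPB glands and 9.84 in OIL glands. Dbp averaged 9.49 ± 0.20 in MPB glands and 9.13 ± 0.16 in TCS glands, with 9.77 ± 0.15 in OIL glands. Lep and Pnpla3, from the lipid genes described below, averaged 7.94 ± 0.67 and 8.92 ± 0.36 in MPB glands and 7.84 ± 0.82 and 8.87 ± 0.80 in TCS glands, with 7.68 ± 0.31 and 8.77 ± 0.44 in OIL glands. Scd2, another lipid gene, averaged 11.62 ± 0.34 in MPB, 11.06 ± 0.39 in TCS and 11.15 ± 0.27 in OIL glands. Other genes described below are given in the order MPB, TCS and OIL. Id1 averaged 9.13, 9.33 and 9.72, and Pfkfb3 9.39, 9.94 and 10.07. Gpihbp1 averaged 9.16, 9.78 and 9.74, and Nabp1 9.32, 9.64 and 8.96. MPB and TCS were not tested against OIL for these genes. DEP was tested against neither chemical.

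**Figure D3:**
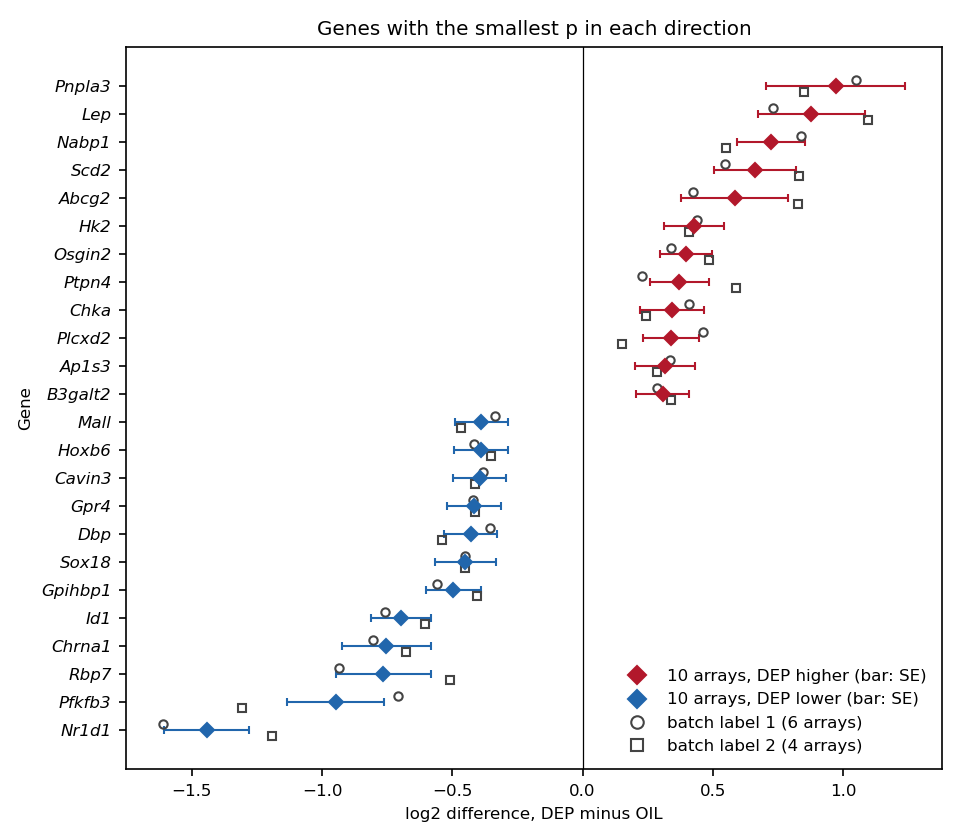
Log2 difference, DEP minus OIL, for the 12 genes with the smallest p in each direction among those with a size of at least 0.3, as diamonds with SE bars, and within batch label 1 (circles, 6 arrays) and batch label 2 (squares, 4 arrays). Both batch values share the sign of the diamond in all 24 genes, which were picked by p, and only Nr1d1 passed the test.

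Genes that make fat were mostly above OIL and genes that burn it mostly below, without a call for any of them in the fit of 10 arrays. Of 19 measured genes of fatty acid and triglyceride synthesis, 15 were above OIL and 4 below (median 0.24, and 0.20 and 0.22 within batch labels 1 and 2). At an unadjusted p under 0.05, 4 were higher, Pnpla3, Scd2, Srebf1 and Acly, and 1 was lower, Lpin1, the last 2 being named after their values were seen. Over all genes 0.71% were higher and 1.55% lower at that p. Without the muscle-rich arrays the median was 0.09, with 14 above and 5 below and 2 genes higher at that p. With single arrays left out the median ran between 0.15 (without DEP replicate 2) and 0.36 (without OIL replicate 2). In other windows the median of these genes was -0.10 after GD 1-20, -0.19 after PND 1-20 and -0.32 after PND 42-62.

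Scd2, a stearoyl-CoA desaturase that makes monounsaturated fatty acids, read 11.75, 11.59, 11.59, 11.58 and 12.06 in DEP glands and 10.86, 11.53, 10.89, 11.08 and 10.90 in OIL glands. DEP glands were all above OIL glands, of which replicate 2 came close. The difference was 0.66 ± 0.16, and in the fit over 40 arrays Scd2 joined Nr1d1 past the threshold (adjusted p = 0.0362 by limma). Pnpla3, a lipid droplet protein under control of SREBP-1c, read 8.86, 10.21, 9.56, 9.87 and 9.60 in DEP glands and 8.18, 9.16, 8.14, 8.92 and 8.86 in OIL glands. DEP replicate 1 lay within the OIL range, and the difference was 0.97 ± 0.27. Srebf1, which encodes SREBP-1, differed by 0.46 ± 0.17, and Acly, which supplies cytosolic acetyl-CoA, by 0.48 ± 0.21. Lpin1, a phosphatidate phosphatase, differed by -0.41 ± 0.18.

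Lep, the gene of the satiety hormone leptin made by adipocytes, read 8.52, 8.74, 8.08, 8.77 and 8.17 in DEP glands and 7.81, 8.05, 7.27, 7.14 and 7.61 in OIL glands. The groups did not overlap, although DEP replicate 3 was close to OIL replicate 2, and the difference was 0.88 ± 0.20, with 0.73 and 1.10 within batch labels 1 and 2. The fat cell list that holds Lep had 6 of 19 measured members above OIL and 13 below, with a median of -0.09, and 9 above and 10 below (median -0.07) without DEP replicate 1. Aqp7, the glycerol channel of adipocytes, differed by -0.44 ± 0.15, and Lipe, hormone-sensitive lipase, by -0.33 ± 0.12. Pparg, the master regulator of fat cells, differed by -0.05 ± 0.16. The 7 measured genes of thermogenic fat had a median of -0.08, with 3 above and 4 below, and the median was 0.11 without OIL replicate 1.

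Fatty acid oxidation and PPAR target genes were below OIL in 15 of 20 cases, with a median of -0.12 that was -0.06 without DEP replicate 1. Within batch labels 1 and 2 the median was -0.14 and -0.04. In other windows it was 0.04 after GD 1-20, -0.01 after PND 1-20 and -0.27 after PND 42-62. Angptl4, an inhibitor of lipoprotein lipase, read 10.91, 10.08, 11.25, 10.83 and 10.38 in DEP glands and 11.59, 11.38, 11.16 and 11.45 in OIL replicates 1, 3, 4 and 5, with OIL replicate 2 lowest at 10.997. Only DEP replicate 3 reached the OIL range, and the difference was -0.63 ± 0.22. Cpt1a, which admits fatty acids to mitochondria, differed by -0.39 ± 0.16. Acadl, a mitochondrial acyl-CoA dehydrogenase, differed by -0.23 ± 0.11 with no overlap. Cholesterol synthesis genes were split, 6 above and 5 below, with a median of 0.02 and medians of -0.18 and 0.24 within batch labels 1 and 2.

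The 2 glucose genes among those of smallest p went opposite ways. Pfkfb3, whose product makes the activator of phosphofructokinase, read 8.97, 9.27, 9.28, 8.63 and 8.72 in DEP glands and 9.93, 9.45, 10.26, 9.74 and 10.23 in OIL glands. All DEP glands were below OIL, with OIL replicate 2 nearest, and the difference was -0.95 ± 0.19, with -0.71 and -1.31 within batch labels 1 and 2. Hk2, the hexokinase of insulin-responsive tissue, read 8.62, 8.75, 8.44, 8.57 and 8.61 in DEP glands and 7.95, 8.46, 8.08, 8.18 and 8.19 in OIL glands. DEP replicate 3 was just under OIL replicate 2 and the other DEP glands were above all OIL glands, and the difference was 0.43 ± 0.12. Pfkfb3 differed by -0.77 ± 0.24 after PND 42-62, and Hk2 by 0.17 ± 0.17.

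**Figure D4:**
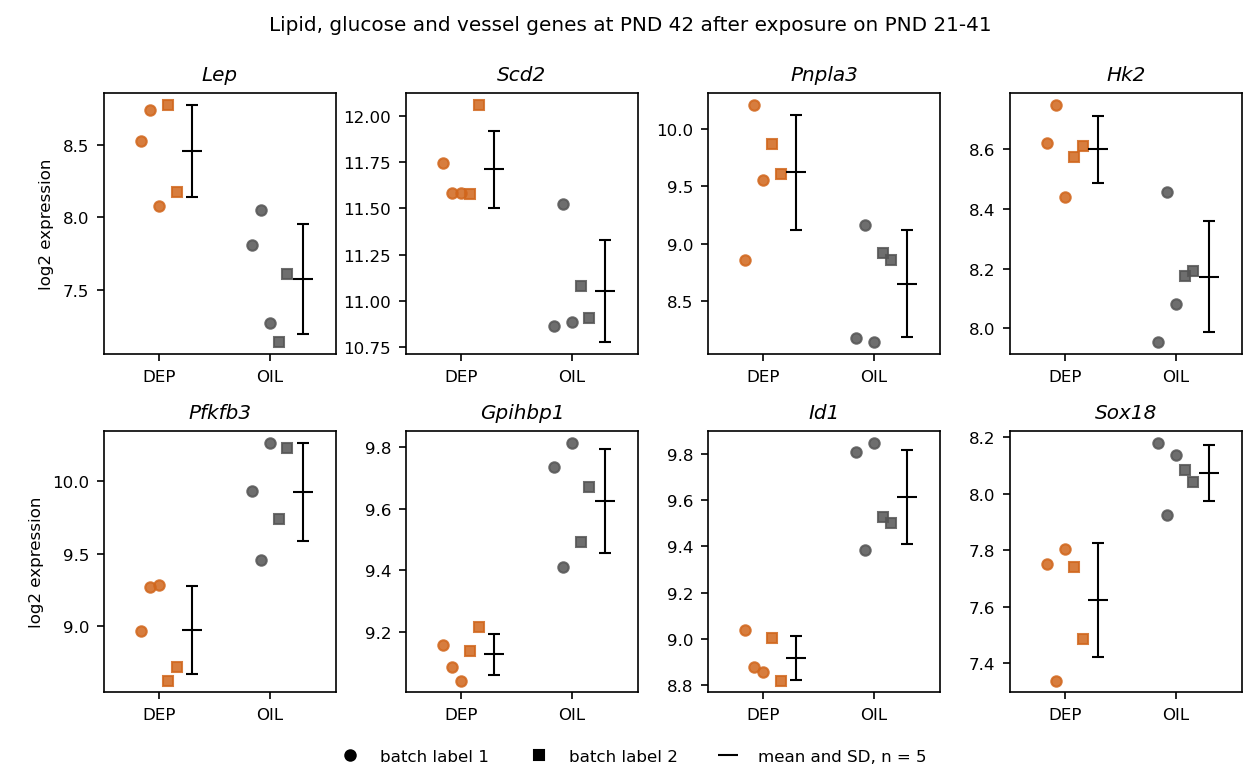
Log2 expression of 4 genes above OIL (Lep, Scd2, Pnpla3, Hk2) and 4 below (Pfkfb3, Gpihbp1, Id1, Sox18) in each array, with DEP left of OIL, circles and squares for batch labels 1 and 2, and bars for the mean and SD of 5 arrays. Pnpla3 and Hk2 overlap between the groups and the other 6 genes do not.

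Genes of BMP signalling and of blood vessels were among those below OIL. Id1, an inhibitor of basic helix-loop-helix factors and a target of BMP signalling, had the second smallest p. It read 9.04, 8.88, 8.86, 9.00 and 8.82 in DEP glands and 9.81, 9.39, 9.85, 9.53 and 9.50 in OIL glands. The groups did not overlap, and the difference was -0.70 ± 0.11 (adjusted p = 0.384 by limma). Id3, its paralog, differed by -0.40 ± 0.15, and DEP replicate 1 at 8.78 was above every OIL gland. Smad6, an inhibitor of BMP signalling that BMP itself induces, differed by -0.26 ± 0.11. Of 17 measured genes in this list 5 were above OIL and 12 below, and the median was -0.05. At an unadjusted p under 0.05, 3 of the 17 were lower, beside 1.55% of all genes. Without the muscle-rich arrays 1 was lower at that p.

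All 11 measured genes of blood vessel endothelium were below OIL, with a median of -0.15. At an unadjusted p under 0.05, 4 of them, Vwf, Esam, Sox17 and Egfl7, were lower, beside 1.55% of all genes. Vwf (von Willebrand factor), Sox17 (a transcription factor of arteries) and Egfl7 (a secreted endothelial protein, named after its values were seen) did not overlap between groups. Over all genes 0.473% had no overlap with DEP below. Differences of Vwf, Sox17 and Egfl7 were -0.30 ± 0.11, -0.28 ± 0.10 and -0.24 ± 0.10. Esam, an endothelial adhesion molecule, differed by -0.30 ± 0.11. Without the muscle-rich arrays 3 of the 11 were above OIL and 8 below, the median was -0.07 and none was lower at that p. Without DEP replicate 5 the median was -0.09, and without DEP replicate 2 it was -0.23. The score of the list over arrays lay between -0.40 and -0.17 in DEP glands and between -0.25 and 0.03 in OIL glands, so the groups overlapped. Its median was -0.34 after GD 1-20, with all 11 below OIL, and 0.09 after PND 1-20 and -0.06 after PND 42-62. The 7 lymphatic genes had a median of 0.02.

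Gpihbp1, which carries lipoprotein lipase to the capillary surface, read 9.16, 9.08, 9.04, 9.14 and 9.22 in DEP glands and 9.73, 9.41, 9.81, 9.49 and 9.67 in OIL glands. The groups did not overlap, and the difference was -0.50 ± 0.11. Rbp7, a retinol-binding protein of fat and its capillaries, read 10.57, 10.59, 10.53, 11.04 and 10.45 in DEP glands and 11.40, 11.13, 11.97, 11.13 and 11.38 in OIL glands. DEP replicate 4 was nearest to OIL but still below it, and the difference was -0.76 ± 0.18. Sox18, a transcription factor of vessel development, differed by -0.45 ± 0.12, and Gpr4, a proton-sensing receptor of endothelium, by -0.42 ± 0.10, both with no overlap. Gpihbp1, Rbp7, Sox18 and Gpr4 were not in the endothelial list. They were picked by their small p in these same arrays, so they add no separate evidence on vessel genes. Their differences without the muscle-rich arrays were -0.49, -0.83, -0.46 and -0.35.

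The rest of the lower side held Chrna1, a muscle acetylcholine receptor subunit, at -0.75 ± 0.17. Its levels were 6.82 to 7.48 in DEP glands and 7.70 to 8.54 in OIL glands. OIL replicate 3, not one of the muscle-rich glands, was highest, and the difference without the muscle-rich arrays was -0.84. Cavin3, a component of caveolae, Mall, a membrane protein of lipid rafts, and Hoxb6, a homeobox factor, differed by -0.40 ± 0.10, -0.39 ± 0.10 and -0.39 ± 0.10. On the higher side Nabp1, a single-stranded DNA binding protein of DNA repair, had the smallest p. It read 9.53, 9.87, 9.37, 9.45 and 9.26 in DEP glands and 8.75, 8.62, 8.90, 8.64 and 8.97 in OIL glands. The groups did not overlap, and the difference was 0.72 ± 0.13 (adjusted p = 0.573 by limma). Abcg2, an efflux transporter that also secretes into milk, differed by 0.58 ± 0.21, Osgin2 by 0.40 ± 0.10, the phosphatase gene Ptpn4 by 0.37 ± 0.11, and these 3 did not overlap. Plcxd2, B3galt2, a galactosyltransferase, Chka, a choline kinase, and Ap1s3, a clathrin adaptor subunit, had differences between 0.31 and 0.34 with overlap.

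Milk genes varied widely among glands. Wap, whey acidic protein, read 7.60, 7.58, 9.91, 7.25 and 8.41 in DEP glands and 7.15, 7.18, 7.02, 7.15 and 7.14 in OIL glands. The OIL glands lay close together here and below every DEP gland. In the separately normalized table, where DEP glands were not compared, the same OIL arrays spread wider, from 6.61 to 7.57 (SD 0.46). DEP replicates 3 and 5 were highest, and the difference was 1.02 ± 0.43. Without DEP replicate 3 it was 0.57, and without the muscle-rich arrays, which include that gland, it was 0.57 ± 0.27. Csn2, beta-casein, read 10.01, 10.32, 10.91, 7.65 and 11.19 in DEP glands and 8.37, 10.58, 6.88, 8.20 and 8.42 in OIL glands. DEP replicate 4 and OIL replicate 2 lay with the opposite group, and the difference was 1.53 ± 0.74 (95% interval -0.13 to 3.18), with 1.02 without OIL replicate 3. Of 17 measured milk and secretory genes 13 were above OIL and 4 below, with a median of 0.08, 1 of them higher at an unadjusted p under 0.05. Without the muscle-rich arrays the median was 0.01 and the count 0, and without DEP replicate 1 the median was 0.28 and the count 5, where the count over all genes was 127 in place of 48.

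Hormone receptors and their response genes were close to OIL or too variable to place. Esr1, estrogen receptor alpha, differed by 0.05 ± 0.15 (95% interval -0.29 to 0.39), and Prlr, the prolactin receptor, by -0.10 ± 0.21 (-0.56 to 0.37). Pgr, the progesterone receptor, read 10.84, 9.94, 8.13, 10.81 and 9.42 in DEP glands and 9.85, 8.41, 11.22, 9.50 and 10.59 in OIL glands. Both groups spread over the whole range, and the 95% interval of its difference was -1.44 to 1.27. Ghr, the growth hormone receptor, differed by 0.11 ± 0.14. Medians were -0.06 for 8 steroid receptor and enzyme genes, -0.01 for 13 estrogen and progesterone response genes, -0.04 for 18 genes of the prolactin and growth hormone axis and 0.01 for 13 glucocorticoid response genes, where Per1 was the 1 gene higher at an unadjusted p under 0.05. Star, the cholesterol carrier of steroid synthesis, differed by -0.52 ± 0.26 with overlap.

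Of 16 xenobiotic metabolism genes 4 were above OIL and 12 below, with a median of -0.13. Gsta1, a glutathione transferase, differed by 0.33 ± 0.13 and Ephx1, microsomal epoxide hydrolase, by -0.43 ± 0.18. Hspb1, a small heat shock protein, differed by -0.42 ± 0.16 in a stress list of 11 genes with a median of -0.08. Interferon response genes were below OIL in 18 of 18 cases (median -0.15) with none at an unadjusted p under 0.05, and Irf7, an interferon regulatory factor, differed by -0.43 ± 0.21. Their median was -0.03 without OIL replicate 2 and -0.22 without OIL replicate 3. Without the muscle-rich arrays 3 were above OIL and 15 below (median -0.23), and 2 were lower at that p, Irf7 (-0.67) and Ifit1 (-0.57), an interferon-induced gene. After PND 42-62 the same list was below OIL in 18 of 18 cases with a median of -0.75. Complement and acute phase genes were below OIL in 14 of 14 cases (median -0.11), but 6 were above and 8 below (median -0.07) without DEP replicate 1, and 4 above and 10 below without the muscle-rich arrays. Immediate early genes were below OIL in 15 of 18 cases (median -0.09), and in 11 of 18 (median -0.04) without the muscle-rich arrays. The medians of the xenobiotic and stress lists were -0.06 and -0.20 without DEP replicate 1, and that of the stress list was -0.01 without DEP replicate 3. Retinoid genes had a median of -0.03, with Rbp7 the 1 of 14 lower at that p.

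Cell cycle genes were above OIL in 24 of 24 cases with a median of 0.41, but none had an unadjusted p under 0.05. Their score was -1.09 to 1.43 in DEP glands and -0.99 to 1.46 in OIL glands, the lowest being DEP replicate 2 and OIL replicate 1 and the highest DEP replicate 5 and OIL replicate 2. Within batch label 1 the median was 0.03 and within batch label 2 it was 0.96. Without the muscle-rich arrays 1 of 24 was above OIL and the median was -0.14. With single arrays left out it ran between 0.13 (without DEP replicate 5) and 0.89 (without OIL replicate 2). Ccnb1, cyclin B1, read 8.88, 6.62, 8.79, 8.39 and 9.62 in DEP glands and 6.92, 9.53, 7.59, 7.49 and 7.95 in OIL glands. The groups overlapped over nearly their whole range, and the difference was 0.57 ± 0.59.

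Cell type lists gave no member past the test. T and NK cell genes had 14 of 17 members above OIL and a median of 0.22, with 0.79 in batch label 1 and -0.41 in batch label 2, and B cell and lymph node genes 11 of 14 and a median of 0.16, with 0.85 and -0.86. Without DEP replicate 1 these medians were -0.18 and -0.35. Skeletal muscle genes were below OIL in 16 of 16 cases with a median of -0.35, and without the muscle-rich arrays 15 of 16 were above with a median of 0.14. Luminal genes had 4 above and 17 below (median -0.07) with all 5 DEP glands in, and 17 above and 4 below (median 0.06) without DEP replicate 1, which had the lowest luminal score. Medians of the basal, fibroblast, macrophage, plasma cell, mast cell, erythroid, Schwann cell and keratinocyte lists lay between -0.10 and 0.00. With the muscle score or the B cell and lymph node score as a covariate, 148 and 223 genes had an unadjusted p under 0.05, and 0 and 1 (Nr1d1) passed the test by limma.

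**Figure D5:**
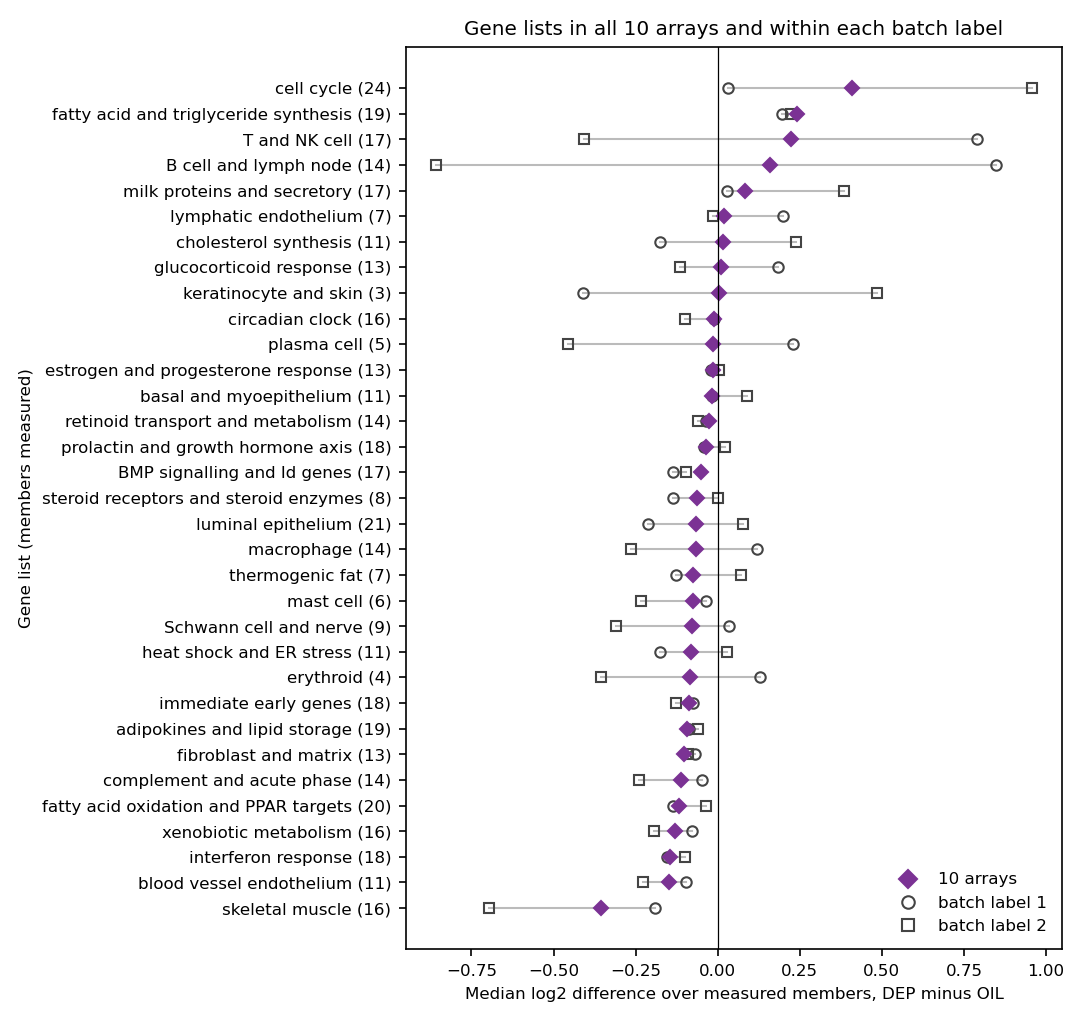
Median log2 difference, DEP minus OIL, over the measured members of each of 33 gene lists (number of members in brackets), for all 10 arrays (diamonds) and within batch label 1 (circles) and batch label 2 (squares). Fatty acid and triglyceride synthesis has similar medians in both batch labels, whereas the cell cycle list and the lymphocyte and muscle lists differ widely between them.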

How the data were processed

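Biotin-labelled total RNA of caudal mammary glands was read on Affymetrix whole-transcript arrays, and only RNA with an integrity number of at least 7 was used, per the labels' protocols. The submitters' processing notes name RMA and the Affymetrix Expression Console for the deposited log2 expression values, and RMA covers background correction, quantile normalization and probe summary. Versions and the genome build are not given in the sources used here. The deposited matrix of DEP and OIL arrays held 7780 clusters of the 36685 in the value table, so genes outside it were not analysed here. The difference between batch means had an SD over clusters of 0.0231 over all 40 arrays of that table, and of 0.272 in the OIL arrays of this window against 0.456 for the same arrays in the value table, and no label states a batch adjustment. Batch means were thus nearly level over the 40 arrays. If they were levelled before deposit, the p-values here, that of Nr1d1 included, rest on too many degrees of freedom, which was not tested.

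A single symbol was given to 6771 clusters by the platform's annotation, several to 150 and none to 859. Each of the 6762 genes was represented by its cluster of highest mean, with no filter on low values beyond the selection already made in the deposited matrix. The functions lmFit and eBayes of limma 3.58.1 (in R 4.3.3, with version 1.17.8 of data.table) were applied to the deposited log2 values, with treatment and batch as terms over 10 arrays, and window differences were contrasts over 40 arrays. Tests were 2-sided with Benjamini-Hochberg adjustment over all genes and a threshold of 0.05. The procedure was tested on simulated data. Named genes were all past the threshold, the 12 of smallest p in each direction with a size of at least 0.3, the measured clock genes, 3 genes of smallest p in each other list, 6 receptors, and the 10 genes most correlated with Nr1d1. Muscle-rich arrays had a muscle score over 1. Alternatives varied batch, arrays, moderation, normalization, filters, clusters, covariates and single replicates. Members and the 33 lists (444 of 602 members measured) were chosen with earlier results of these data known. Sequences were taken from RefSeq (GRCr8) with Python 3.11.15 and pandas, and figures were drawn with matplotlib.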

Additional observations from a re-analysis of the deposited data

Results flagged for a closer look

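Single glands far from the other 4 of their group were looked for in 214 groups of 5 values (named genes and list scores), and 17 were found, where chance gives about 1 in 20. DEP replicate 1 held several of them: Cd8b, a T cell gene, read 8.67 against 6.37 to 6.99 in the other DEP glands, the T and NK cell score was 0.477 against -1.41 to -1.03, the B cell and lymph node score 0.546 against -1.65 to -1.30, and the luminal score 0.163 against 0.494 to 0.569. In the same gland Id3 read 8.78 against 7.92 to 8.17 and Cavin3 10.19 against 9.89 to 9.94. DEP replicate 3 had a skeletal muscle score of 2.14 against -0.445 to 0.0079 and a Tnni2 level of 7.54 against 6.22 to 6.50, Tnni2 being a fast muscle troponin. DEP replicate 4 read 11.04 for Rbp7 against 10.45 to 10.59.

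Among OIL glands, replicate 5 read 8.55 for Per1 against 7.45 to 7.73, and replicate 2 read 7.55 for Usp2, a clock-controlled ubiquitin protease, against 6.87 to 6.98. OIL replicate 2 also had a prolactin and growth hormone axis score of -0.0226 against 0.174 to 0.237 and an immediate early gene score of -0.226 against 0.103 to 0.208. OIL replicate 1 read 11.03 for Cpt1a against 10.49 to 10.64. OIL replicate 3 read 10.99 for Acadl against 10.79 to 10.82 and 7.02 for Wap against 7.14 to 7.18, and its steroid receptor and enzyme score was 0.726 against 0.328 to 0.424. For Wap the OIL glands ran from 6.61 to 7.57 in the separately normalized table.

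The Nr1d1 difference after PND 21-41 minus that after PND 1-20 was -1.67 (adjusted p = 0.0133 by limma over 40 arrays), with all 5 DEP glands below all 5 OIL glands in the later window and overlap in the earlier one.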

How the results depend on the processing

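The Nr1d1 difference was below 0 under all 25 alternatives. Its call was lost within batch label 1 (-1.61, adjusted p = 0.786), within batch label 2 (-1.19, 0.685), with the muscle score as a covariate (-1.42, 0.0711) and without the muscle-rich arrays (-1.61, 0.151), all by limma. The count of genes past the threshold was then 0 in each case, with 58, 442, 148 and 109 genes at an unadjusted p under 0.05, and 2 with all 40 arrays in one fit, Nr1d1 and Scd2. Leaving out 1 array gave Nr1d1 differences between -1.54 and -1.35 and counts between 0 and 1, the call being lost without DEP replicate 1, 2 or 4 or OIL replicate 1, 2, 3 or 5. Fewer arrays enter these fits. The count against PND 1-20 was 2 with no batch term and 2 with an intensity trend, Nr1d1 and Scd2, and ran between 0 and 2 with 1 array left out. Counts against PND 42-62 and GD 1-20 were 0 under every alternative run. Without batch or with centred arrays, quantile normalization, either filter, other cluster rules, the B cell score or another moderation, Nr1d1 alone passed in the 10-array fit. Of 825 list medians under alternatives, 11 moved by more than the spread of the list score between replicates. That spread is wide for variable lists, so a median can change sign and not be counted. The cell cycle median did so, from 0.41 to -0.14 without the muscle-rich arrays. No paired analysis was possible because DEP and OIL animals carry different numbers in the labels, and their replicate numbers only name the arrays.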
